A study of Rattus norvegicus with 4 samples.

Results

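Integrins are the receptors through which cells hold the extracellular matrix, and focal adhesion proteins link the inner ends of these receptors to actin. The genes described here are the integrin chains, the integrin-like secreted protein gene Itgbl1, and genes of adhesion plaque proteins, chosen by symbol from a list of 43. The deposited table of 23608 genes holds 42 of them. Itgb5 was not analysed here, and Itga10 was the sole gene of the 42 that did not reach 1 CPM in any library. CPM are counts scaled to library size by the trimmed mean of M-values (TMM). The other 41 entered a test across the 13634 genes that did.

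The RNA came from primary wild type rat microvascular cells of subcutaneous soft connective tissue, kept as microvessels on stiff or soft matrix. On each matrix 1 library was made with A83-01, which blocks the kinase activity of TGF-beta type I receptors, and 1 without it. The 4 libraries are stiff with A83-01, stiff, soft with A83-01 and soft. The stiffness values, the dose and the number of animals are not given in the labels, and the libraries of each matrix are named in a form of their own, so effects of matrix and of a possible separate preparation cannot be told apart. The study asked how both factors act on microvessels and on whether pericytes, which wrap capillaries, become contractile myofibroblasts.

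Each library held between 32271844 and 33416200 counts, and 3 counts corresponded to between 0.0842 and 0.103 CPM. With 1 library per group, a difference between a pair of libraries has no replicate check, and the 95% intervals given with folds cover counting error only. An additive model of stiffness and inhibitor, which leaves 1 residual degree of freedom, was tested with the quasi-likelihood method of edgeR, with Benjamini-Hochberg adjustment over the 13634 genes. The residual of this model is the extent to which the stiffness difference depends on the inhibitor, so the test favours genes whose difference is alike in both. The labels do not say whether each library had its own culture or animal, so the p-values reflect only how these libraries vary, which may be technical. In bulk RNA, fewer cells of a type and less RNA per cell cannot be told apart.

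An integrin is a pair of an alpha and a beta chain. The alpha chain largely sets the ligand: Itga1, Itga2, Itga10 and Itga11 form collagen receptors with Itgb1, Itga3, Itga6 and Itga7 form laminin receptors, and Itga5, Itga8 and Itgav form receptors for proteins with the RGD motif, such as fibronectin and vitronectin. Talins and the kindlin Fermt2 bind the beta tail and activate the receptor, while vinculin, alpha-actinins and filamins tie it to actin. In contractile mural cells and myofibroblasts such adhesions are enlarged and carry force, and integrins of the alpha v class release latent TGF-beta from the matrix.

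Integrin and adhesion genes were mostly higher on stiff matrix. In the additive test 13 of the 41 genes rose and 0 fell, while 2.35% of all genes rose and 3.29% fell. At an unadjusted p of at most 0.05, 28 of the 41 were higher and 2 lower, beside 12.1% and 13.2% of all genes. By DESeq2's Wald test 20 rose and 0 fell after adjustment, beside 4.21% and 5.41% of all genes. The 13 were the integrin genes Itga11, Itga8, Itga6, Itga9 and Itga1, the actin linker genes Vcl, Actn1 and Flnc, the scaffold genes Tgfb1i1 and Ptk2, and the LIM protein genes Csrp1, Pdlim5 and Fblim1. Their log2 differences ran between 0.73 and 2.85, with adjusted p between 0.00729 and 0.0433 in edgeR's quasi-likelihood test. The median log2 difference was 0.81 over the 41 genes and 0.01 over all genes. With DESeq2 size factors in place of TMM, Itga1, Itga6, Flnc and Ptk2 missed the threshold. Their adjusted p lay between 0.0510 and 0.0542 in the quasi-likelihood test. With the inhibitor left out of the model 0 of the 41 rose, where 13 of all 13634 genes rose and 17 fell.

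**Figure D1:**
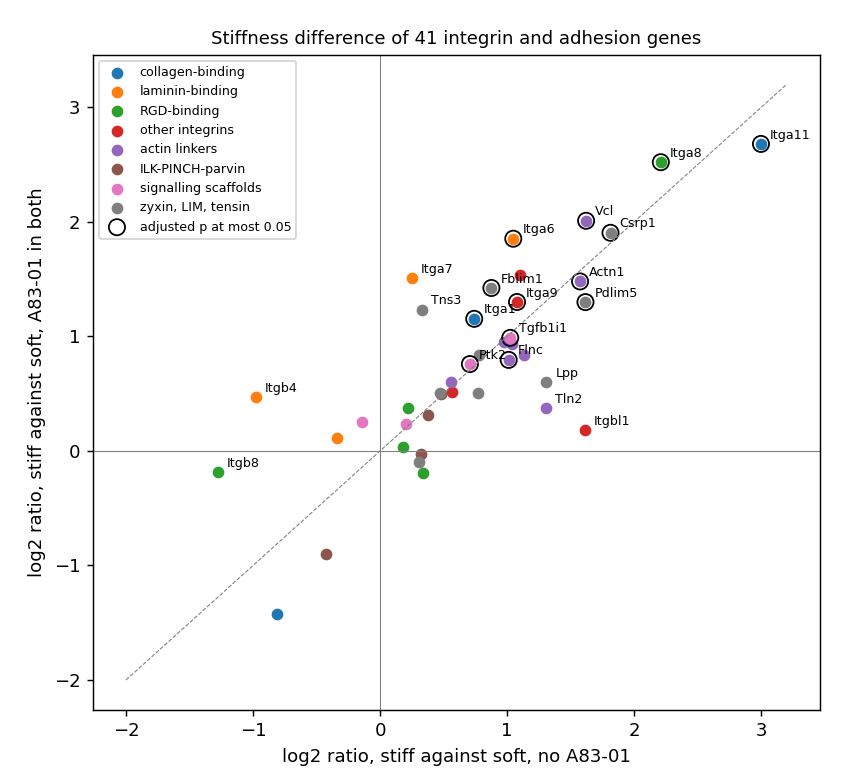
Each point is 1 of 41 integrin and adhesion genes, with the log2 ratio of stiff against soft without A83-01 on the x axis and with A83-01 in both libraries on the y axis. Circled genes rose in the additive test; Itga11, at 3.00 and 2.68, lies farthest up and right, while Itga7, Itgb4, Itgb8 and Tns3 lie above the dashed line of equality and Itgbl1 and Tln2 below it.

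Between the stiff and the soft library without inhibitor, 2-fold or more separated 17 of the 41 genes with a counting interval that excludes equality, 16 of them higher and 1, Itgb8, lower. Over all genes these shares were 5.33% higher and 8.58% lower. With A83-01 in both, 13 of the 41 were higher in this way and 1, Itga2, was lower, beside 6.88% and 6.72% of all genes. The median log2 ratio of the 41 was 0.74 without and 0.60 with the inhibitor, against 0.00 and 0.01 for all genes. Scaling by total counts lowers the median of all genes to −0.23 in the comparison without inhibitor, and there 9 of the 41 were at least 2-fold higher and 3 lower, beside 3.87% and 11.7% of all genes.

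The 3 promoters shown belong to the genes that the results turn on: Itga11, which changed most, Fblim1, whose window is the sole one among the 11 matched genes that rose to hold a CArG box, the site of serum response factor, and Vcl, with a CATTCC element of the kind bound by TEAD factors. All 3 were picked with their values known. The windows are from RefSeq, rat build GRCr8, with 250 bases before and 50 after the gene start, written 5′ to 3′ along the gene, and capitals mark the CArG box in Fblim1 and the CATTCC element, here on the opposite strand, in Vcl. Their positions are chr8:72041182-72041481 on the plus strand for Itga11, chr5:159196767-159197066 on the minus strand for Fblim1, and chr15:3404751-3405050 on the minus strand for Vcl.
Itga11: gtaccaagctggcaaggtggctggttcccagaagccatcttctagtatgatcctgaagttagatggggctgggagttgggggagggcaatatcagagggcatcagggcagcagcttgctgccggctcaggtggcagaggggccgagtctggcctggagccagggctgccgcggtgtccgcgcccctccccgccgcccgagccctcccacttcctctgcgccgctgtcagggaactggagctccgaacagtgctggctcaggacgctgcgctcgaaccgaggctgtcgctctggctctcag
Fblim1: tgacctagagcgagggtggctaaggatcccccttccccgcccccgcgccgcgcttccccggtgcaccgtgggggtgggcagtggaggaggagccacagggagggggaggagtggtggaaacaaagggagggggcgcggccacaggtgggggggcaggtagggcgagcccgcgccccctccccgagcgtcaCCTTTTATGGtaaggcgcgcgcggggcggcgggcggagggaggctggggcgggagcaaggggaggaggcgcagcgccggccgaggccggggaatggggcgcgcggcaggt
Vcl: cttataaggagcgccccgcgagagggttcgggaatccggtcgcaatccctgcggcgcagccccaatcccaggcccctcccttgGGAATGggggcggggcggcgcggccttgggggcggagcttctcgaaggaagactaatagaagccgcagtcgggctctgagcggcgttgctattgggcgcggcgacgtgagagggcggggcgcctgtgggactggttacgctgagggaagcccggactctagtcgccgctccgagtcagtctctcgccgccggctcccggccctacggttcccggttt
The Fblim1 box lies between 60 and 51 bases before the start, and the Vcl element between 167 and 162 bases before it. Of all 33469 windows in the table, 1.64% hold a CArG box on either strand, and 14.2% hold CATTCC. Among the 32 genes with a window, 1 held a CArG box and 11 held CATTCC, and among the 11 matched genes that rose on stiff matrix the numbers were 1 and 3. TGANTCA, the AP-1 element, and GTCTAGAC, a palindromic SMAD element, were in 0 of the 32 and in 7.33% and 0.197% of all windows. Fblim1 also holds 1 CATTCC match after its start, left in lower case. The Vcl window opens with cttataagg, a CArG box but for its first base, which would lie outside the window and was not read. A site cut by the window edge could not be matched. These matches describe letters in the windows, not binding.

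Among the collagen receptors, Itga11 and Itga1 rose on stiff matrix. Itga11, the collagen receptor chain known from myofibroblasts, stood at 49.5 CPM in stiff with A83-01, 648 CPM in stiff, 7.67 CPM in soft with A83-01 and 81.1 CPM in soft. The stiff library without inhibitor was far above the other 3, and each library with A83-01 was below its untreated counterpart. Itga11 rose by 2.85 on the log2 scale with stiffness (SE 0.173, adjusted p = 0.00729) and fell by 3.56 with A83-01 (SE 0.178, adjusted p = 0.0357) in edgeR's quasi-likelihood test. The log2 ratio of stiff to soft was 3.00, a fold between 7.68 and 8.33, and with A83-01 in both libraries the fold was 6.45 (5.66 to 7.38). A83-01 left it 13.1-fold lower on stiff (12.5 to 13.8) and 10.6-fold lower on soft (9.29 to 12.1).

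Itga1 stood at 92.9 CPM in stiff with A83-01 and 74.9 CPM in stiff, and at 41.8 CPM in soft with A83-01 and 44.8 CPM in soft, so both stiff libraries were above both soft ones. It rose by 0.95 (SE 0.155). Itga2, the collagen receptor chain of platelets and epithelia, went the other way without passing the test: it had 3.34 and 3.41 CPM in stiff with A83-01 and stiff, against 9.04 and 6.03 CPM in soft with A83-01 and soft. Between the libraries with A83-01 it was 2.71-fold lower on stiff matrix (2.18 to 3.38). Itga10, a chain known from cartilage, had 0, 28, 3 and 8 counts in stiff with A83-01, stiff, soft with A83-01 and soft. With its 0 counts in stiff with A83-01 set to 3, it was 11.4-fold lower there than in stiff. The lower limit of the counting interval, taken from the 0 counts, was 8.71-fold.

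Laminin receptor genes were divided by stiffness and shared a higher level with A83-01 on stiff matrix. Itga6 rose on stiff matrix, by 1.45 (SE 0.226), with 166 CPM in stiff with A83-01, 92.3 CPM in stiff, 46.0 CPM in soft with A83-01 and 44.6 CPM in soft. Both soft libraries were nearly equal, and the inhibitor-treated stiff library was the highest. Itga7, the laminin receptor chain of muscle, had 104, 42.4, 36.6 and 35.6 CPM in the same order and did not pass the test. Itga3 differed by inhibitor more than by matrix and did not pass either test: it stood at 40.4 CPM in stiff with A83-01 and 8.98 CPM in stiff, and at 37.3 CPM in soft with A83-01 and 11.4 CPM in soft. It was 4.50-fold higher with A83-01 on stiff (3.94 to 5.16) and 3.29-fold higher on soft (2.93 to 3.70), with adjusted p = 0.0901 for A83-01 in the quasi-likelihood test.

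Itgb4, the beta chain that pairs with Itga6 in hemidesmosomes, had 14.1 CPM in stiff with A83-01, 3.92 CPM in stiff, 10.2 CPM in soft with A83-01 and 7.80 CPM in soft. Its untreated stiff library was the lowest of the 4. In stiff with A83-01 against stiff, 3 of the 4 laminin receptor genes were at least 2-fold higher, and Itga6 was 1.80-fold higher (1.72 to 1.89). Over all genes 7.8% were at least 2-fold higher there. The median log2 ratio of the 4 genes was 1.56 on stiff and 0.21 on soft matrix, and all 4 lay above 0 on both matrices under TMM, DESeq2 and total-count scaling. On soft matrix Itga6 and Itga7 were 1.03-fold (0.961 to 1.11) and 1.03-fold (0.946 to 1.11) apart, within counting error.

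Of the 5 RGD receptor genes, 4 lay above 0 in stiff against soft, and 3 did with A83-01 in both libraries. Total-count scaling left 2 above 0 without inhibitor. In the additive test 1 of them, Itga8, rose, beside 2.35% of all genes. Itga8, a chain of smooth muscle and mesenchyme, rose by 2.37 (SE 0.158, adjusted p = 0.00823) in edgeR's quasi-likelihood test. It had 45.5 CPM in stiff with A83-01 and 84.0 CPM in stiff, against 7.88 CPM in soft with A83-01 and 18.1 CPM in soft. Both stiff libraries were above both soft ones, and the inhibitor-treated library was the lower of each matrix. Itga5, the fibronectin receptor chain, followed the inhibitor more than the matrix, with 285, 517, 279 and 456 CPM in stiff with A83-01, stiff, soft with A83-01 and soft. The alpha v chain gene Itgav had 71.1, 112, 81.4 and 88.7 CPM in that order, and its partner Itgb3 had 8.50, 12.7, 6.54 and 10.8 CPM.

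Itga5 was 1.82-fold lower with A83-01 on stiff matrix (1.77 to 1.86) and 1.64-fold lower on soft (1.59 to 1.68), and it did not pass the test. Itgb8, which joins Itgav in activation of latent TGF-beta, had between 19 and 58 counts per library and was 2.56-fold lower (1.498 to 4.56) in stiff than in soft. With the inhibitor in both libraries it was 1.14-fold lower, and that interval, 0.775 to 1.69, includes equality. The directions of Itga5 and Itgb3 in stiff against soft, both 1.17-fold higher or less, turn with total-count scaling.

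The beta chain shared by most of these receptors, Itgb1, had 1127 CPM in stiff with A83-01 and 1363 CPM in stiff, against 789 CPM in soft with A83-01 and 921 CPM in soft, and it did not pass. Itga9, a receptor chain for tenascin and VCAM-1, rose on stiff matrix by 1.19 (SE 0.161), with 18.1, 28.5, 7.31 and 13.4 CPM in stiff with A83-01, stiff, soft with A83-01 and soft. Itga4, which also binds VCAM-1, had the same order of libraries at 1.85, 3.27, 0.597 and 1.49 CPM and did not pass. Itgbl1 encodes a secreted protein with integrin-like repeats. It had 13.3, 14.9, 11.7 and 4.84 CPM, and the untreated soft library was the one that stood low.

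The mix of alpha chains differed between the libraries. Its levels were compared between genes in the authors' FPKM, which divides by transcript length. Of the summed FPKM of the 12 alpha chains, Itga11 held 5.47% in stiff with A83-01, 38.7% in stiff, 1.27% in soft with A83-01 and 9.37% in soft. Itga5 held 33.1%, 32.5%, 48.6% and 55.4%, and was the largest share in each library except stiff, where Itga11 was larger. The laminin receptor chains Itga3, Itga6 and Itga7 together held 30.9%, 7.08%, 18.0% and 9.44%.

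Shares of a whole move together, so they were also taken without Itga11. The laminin receptor chains then held 32.6% in stiff with A83-01 and 11.6% in stiff, and 18.2% in soft with A83-01 and 10.4% in soft. Chains that bind RGD held 51.4%, 75.3%, 70.2% and 79.5% in the same order. Summed alpha-chain FPKM was 169 in stiff with A83-01 and 255 in stiff, against 108 in soft with A83-01 and 156 in soft. For Itga7 the ratio of count to FPKM differed by up to 1.19-fold between libraries, so its FPKM and CPM do not give the same ratios. These shares are single values with no replicate.

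**Figure D2:**
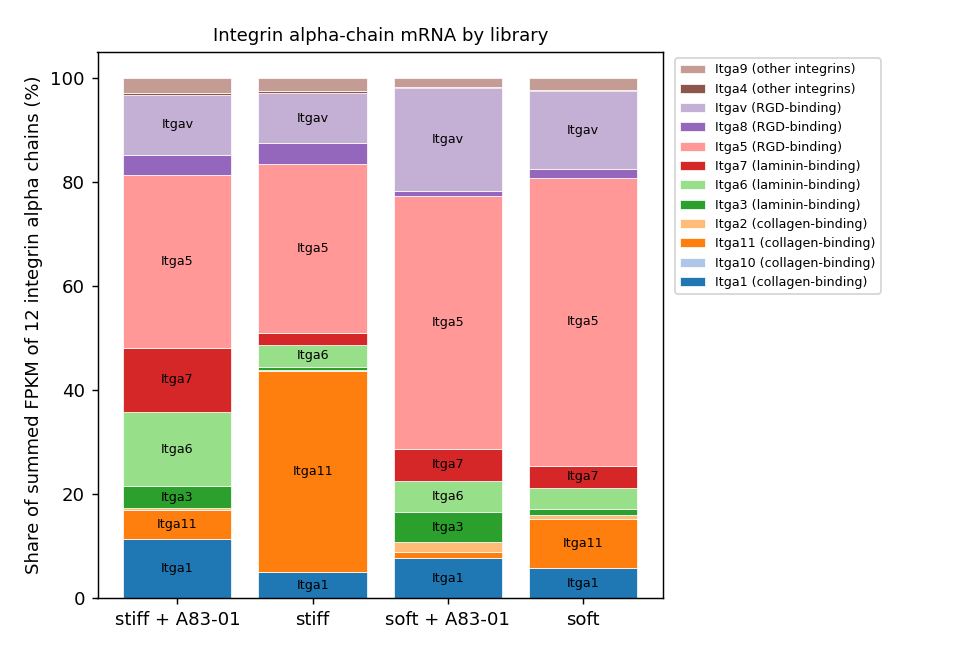
Stacked bars give the share of each integrin alpha chain in the summed FPKM of 12 alpha chains, in percent, for each library. Itga11 takes 5.47% in stiff with A83-01 and 38.7% in stiff, and the laminin receptor chains Itga3, Itga6 and Itga7 are broadest in stiff with A83-01.

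All 8 actin linker genes were higher on stiff matrix without and with A83-01, under each scaling. Of them 3 passed the additive test, in which 2.35% of all genes rose. Vcl, whose product vinculin is recruited to adhesions under force, had 510 CPM in stiff with A83-01 and 411 CPM in stiff, against 127 CPM in soft with A83-01 and 134 CPM in soft. It rose by 1.82 (SE 0.184, adjusted p = 0.0162) in edgeR's quasi-likelihood test. Both stiff libraries were above 3 times the level of both soft ones. Actn1, an actin crosslinker of stress fibres, had 500, 787, 179 and 264 CPM in stiff with A83-01, stiff, soft with A83-01 and soft, and rose by 1.53 (SE 0.172).

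Flnc, the muscle filamin, had 119 CPM in stiff with A83-01, 237 CPM in stiff, 68.4 CPM in soft with A83-01 and 118 CPM in soft. It rose by 0.90 (SE 0.143), although stiff with A83-01 and untreated soft were at the same level. Flna, the widespread filamin gene, had 2310 and 3159 CPM in the stiff libraries with and without A83-01, against 1206 and 1535 CPM in the soft ones. It did not pass, nor did Actn4, at 1338 and 1299 CPM against 692 and 661 CPM in the same order. Fermt2, a kindlin gene, was 2.19-fold higher in stiff than in soft (2.14 to 2.25) and 1.79-fold higher (1.74 to 1.83) where both libraries had A83-01, with adjusted p = 0.0521 in the quasi-likelihood test. Tln1 was 1.47-fold (1.44 to 1.503) and 1.52-fold (1.49 to 1.55) higher.

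Contractile genes of smooth muscle moved with the linkers, and their part in the result was not tested. Of 16 smooth muscle contractile genes 12 rose on stiff matrix, beside 2.35% of all genes. Their summed level was 8728 CPM in stiff with A83-01, 12740 CPM in stiff, 1438 CPM in soft with A83-01 and 2088 CPM in soft.

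Paralogs of the same linker did not keep a fixed ratio. Tln2 stood at 29.1 CPM in stiff with A83-01, 91.4 CPM in stiff, 22.4 CPM in soft with A83-01 and 36.9 CPM in soft, and the stiff library alone was high. It was 3.14-fold lower (2.92 to 3.38) with A83-01 on stiff matrix and did not pass the additive test. By FPKM, Tln2 made up 4.51% of both talins in stiff with A83-01 and 12.2% in stiff, and 5.24% and 7.62% in the soft libraries with and without A83-01. Actn1 made up 30.3% of Actn1 and Actn4 in stiff with A83-01, 41.7% in stiff, 23.1% in soft with A83-01 and 31.9% in soft. Tgfb1i1 made up 71.5%, 83.1%, 60.1% and 69.0% of itself and Pxn. These 3 shares were highest in stiff, and the other 4 pairs examined had another order. Flnc held 4.71%, 6.78%, 5.16% and 6.88% of itself and Flna, and Tns3 held 9.53%, 9.75%, 7.39% and 12.85% of itself and Tns1, both highest in untreated soft. Lims2 was highest in soft with A83-01, with 19.6%, 18.6%, 36.1% and 27.5% of both PINCH genes. Lpp was highest in stiff with A83-01, with 5.03%, 2.31%, 3.15% and 1.15% of itself and Zyx.

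The ILK, PINCH and parvin complex joins the beta tail to actin, and 0 of its 4 genes were called by edgeR's quasi-likelihood test or 2-fold apart in any pair. As 2.35% of all genes rose and 3.29% fell with stiffness in that test, 0 of 4 does not set the complex apart. Nor does 0 of 4 by library pair, where between 2.18% and 7.8% of all genes were 2-fold higher and between 2.44% and 8.58% lower. At an unadjusted p of at most 0.05, 2 of the 4 were higher and 1 lower on stiff matrix, where 12.1% of all genes were higher and 13.2% lower. Ilk had 275 and 309 CPM in stiff with A83-01 and stiff, against 195 and 222 CPM in soft with A83-01 and soft, and Parva had 314 and 405 CPM against 319 and 325 CPM. Lims1 had 58.7 and 62.4 CPM against 47.1 and 48.1 CPM. Lims2, the second PINCH gene, was lower on stiff matrix, with 18.7 and 17.8 CPM against 34.9 and 23.9 CPM, and did not pass.

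Of the scaffold genes, Tgfb1i1 and Ptk2 rose. Tgfb1i1 encodes the paxillin relative known as HIC-5, a TGF-beta-inducible adhesion protein of smooth muscle. It had 148, 210, 74.8 and 103 CPM in stiff with A83-01, stiff, soft with A83-01 and soft, and rose by 1.006 (SE 0.135). Ptk2, which encodes focal adhesion kinase, had 108 and 98.9 CPM in stiff with A83-01 and stiff, against 64.0 and 60.6 CPM in soft with A83-01 and soft, and rose by 0.73 (SE 0.122). Bcar1, the stretch-sensitive kinase substrate, had 181 and 178 CPM against 154 and 155 CPM. Pxn, paxillin itself, had 110 and 78.9 CPM against 92.7 and 86.9 CPM, with no shared order by matrix.

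Among the zyxin, LIM and tensin genes, 3 of 9 rose, beside 2.35% of all genes. Csrp1, a LIM protein that bundles actin in smooth muscle, had 984 CPM in stiff with A83-01 and 1326 CPM in stiff, against 263 CPM in soft with A83-01 and 377 CPM in soft, and rose by 1.86 (SE 0.191). By FPKM it was the most abundant of the 42 genes in both stiff libraries. Pdlim5, a scaffold on alpha-actinin, had 78.8 and 137 CPM against 31.96 and 44.6 CPM and rose by 1.46 (SE 0.144). Fblim1, the filamin-binding migfilin gene whose promoter holds the CArG box shown above, had 113 and 155 CPM against 41.9 and 84.3 CPM and rose by 1.15 (SE 0.180).

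Zyx, the tension-sensing zyxin gene, had 267 and 417 CPM in stiff with A83-01 and stiff, against 286 and 337 CPM in soft with A83-01 and soft, and did not pass. Tns1, which binds integrin tails and actin, had 438 and 372 CPM against 245 and 217 CPM. Its relative Tns3 was 1.26-fold higher in stiff than in soft (1.16 to 1.35) and, with A83-01 in both, 2.36-fold higher (2.17 to 2.56). Pdlim7 and Vasp, which encode an alpha-actinin partner and an actin polymerase, did not pass: without the inhibitor, stiff exceeded soft 1.71-fold (1.65 to 1.77) for Pdlim7 and 1.39-fold (1.33 to 1.45) for Vasp. Lpp, a zyxin relative, was low, at 12.3 and 8.53 CPM against 8.06 and 3.41 CPM, and did not pass.

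**Figure D3:**
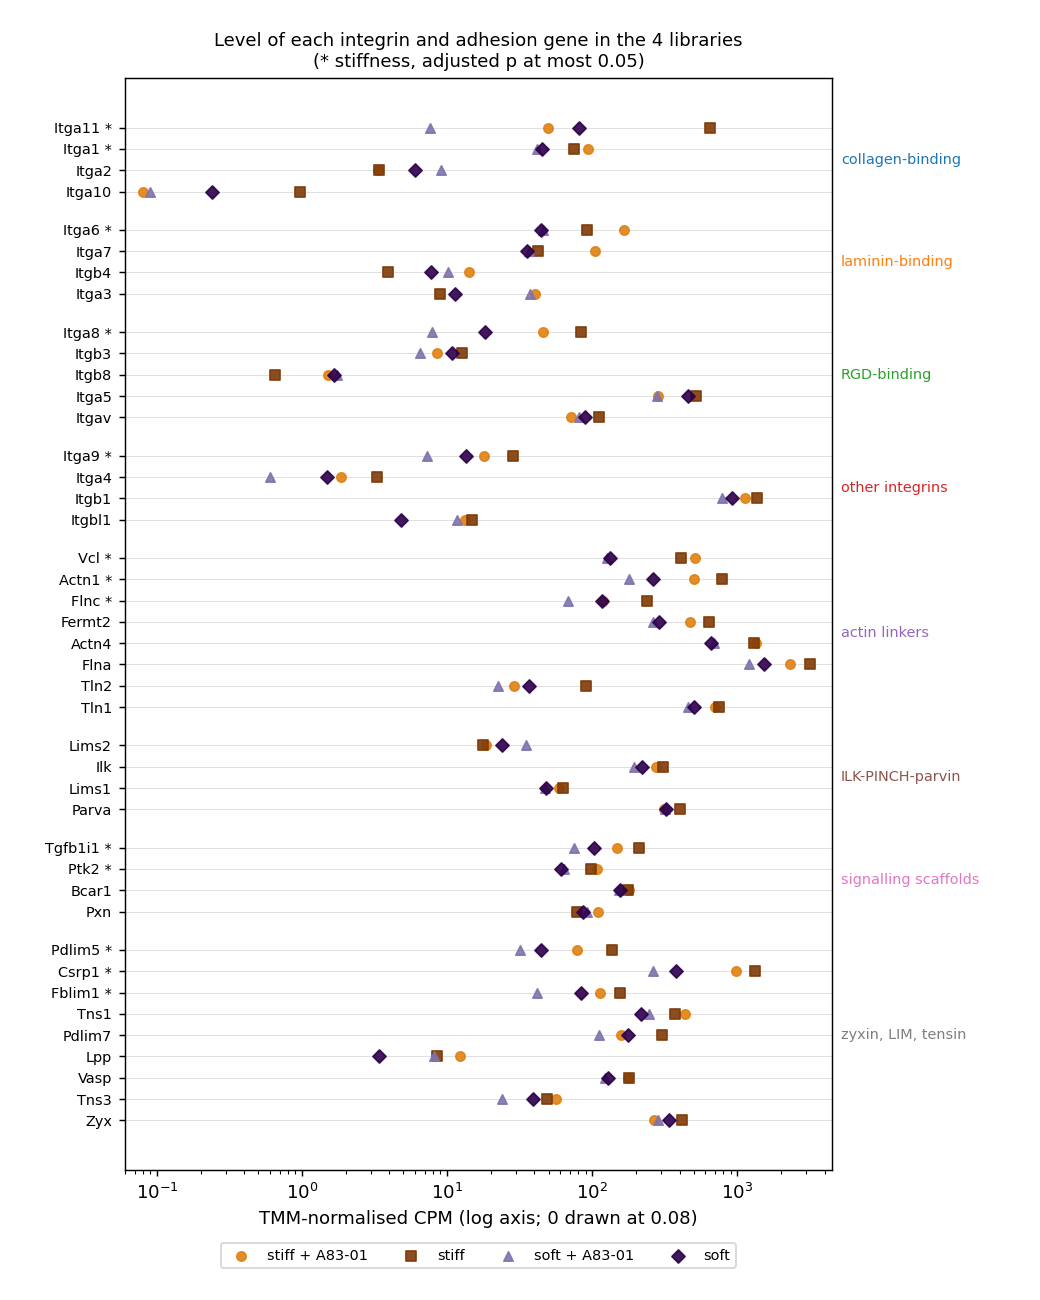
TMM-normalised CPM on a log axis for the 42 integrin and adhesion genes, grouped by role, with 1 marker per library. In the actin linker group and the zyxin, LIM and tensin group both stiff markers lie to the right for most genes, while Itga3 separates by inhibitor: 40.4 and 37.3 CPM with A83-01, 8.98 and 11.4 CPM without.

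A83-01 changed 1 of the 41 genes in the additive test. Itga11 fell, and it was 1 of the 6 genes, or 0.044% of all genes, that fell over the whole table, with 0 genes rising in the quasi-likelihood test, against 7.25% higher and 6.04% lower at an unadjusted p of at most 0.05. Of the same 6, the minor fibrillar collagen gene Col11a1 and the network collagen gene Col8a2 encode matrix proteins. Itga11's adjusted p ran between 4.66e-15 and 0.0486 in the quasi-likelihood test with TMM or total-count scaling and either filter, and was 0.0662 with DESeq2 size factors, where 0 genes of the table fell. It was 0.998 with stiffness left out of the model. By DESeq2's Wald test 6 of the 41 fell and 1 rose, beside 1.79% and 1.61% of all genes, and at an unadjusted p of at most 0.05 the quasi-likelihood test had 13 lower and 3 higher. Both comparisons by inhibitor share libraries with those by stiffness.

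On stiff matrix 4 of the 41 genes were at least 2-fold higher with A83-01, namely Itga3, Itga7, Itgb4 and Itgb8, and 2 were lower, Itga11 and Tln2. Over all genes 7.8% were higher and 4.47% lower. On soft matrix 3 were at least 2-fold higher, namely Itga3, Itgbl1 and Lpp, and 4 lower, namely Itga11, Itga8, Itga4 and Fblim1, where 2.18% of all genes were higher and 2.44% lower. In all, 24 of the 41 genes lay below 0 on both matrices and 11 above 0 on both under TMM scaling. The median log2 ratio of the 41 was −0.17 on stiff and −0.14 on soft, against 0.02 and 0.00 for all genes. With total-count scaling, which puts the median of all genes at 0.31 on stiff matrix, that of the 41 was 0.12 there, so the sign turns, and 22 of the 41 in place of 15 lay above 0.

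**Figure D4:**
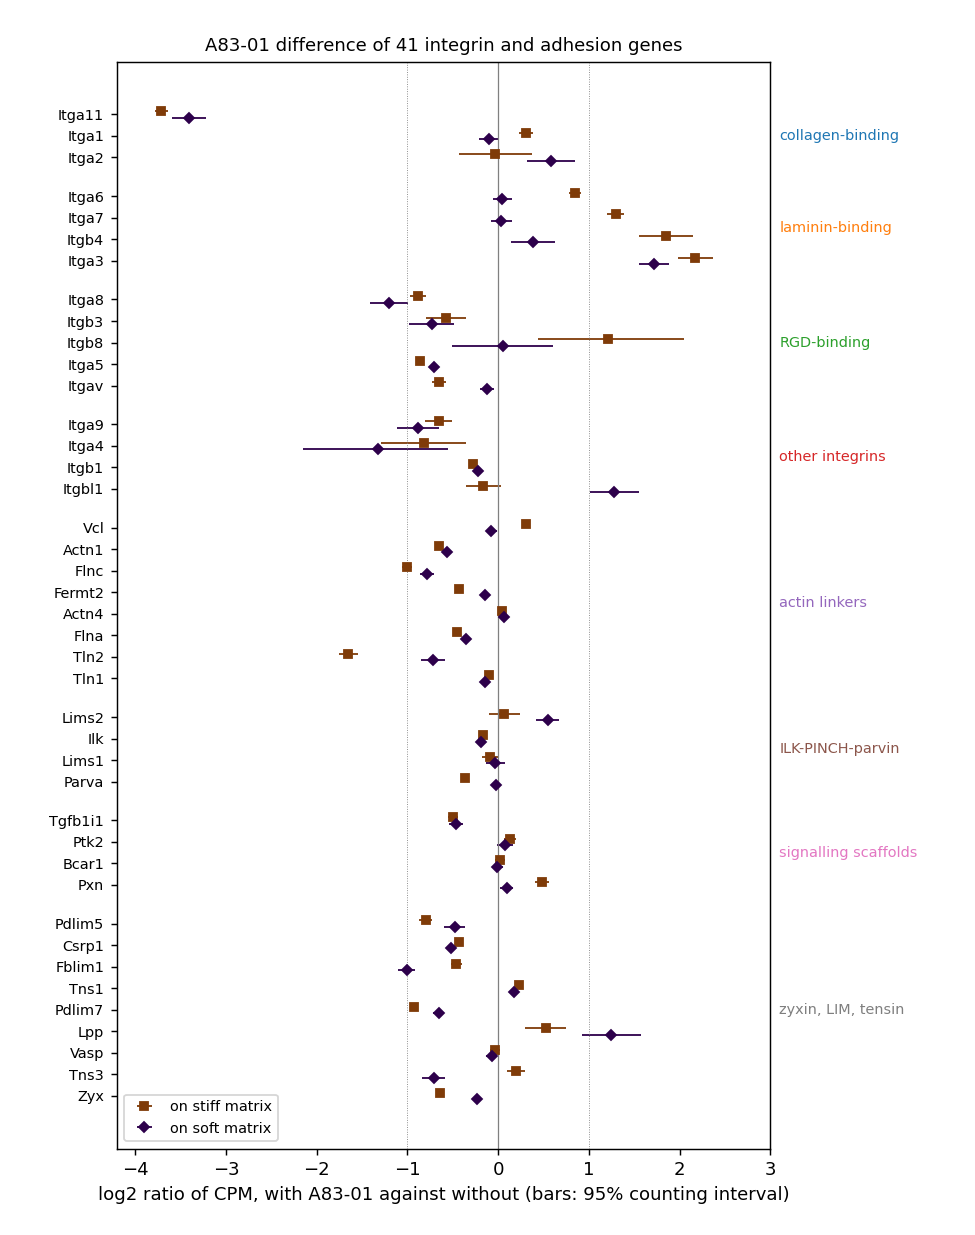
Log2 ratio of CPM with A83-01 against without, on stiff (squares) and soft (diamonds) matrix, for 41 integrin and adhesion genes, with 95% counting intervals and dotted lines at 2-fold. Itga11 lies lowest on both matrices, and the 4 laminin receptor genes lie to the right, farther on stiff than on soft.

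Of the 13 genes that rose with stiffness, 9 lay lower with A83-01 on both matrices, and Ptk2 and Itga6 lay higher on both. None of the 13 had a level in stiff with A83-01 below its untreated stiff counterpart by as much as Itga11: the next were Flnc, 1.999-fold lower (1.92 to 2.08), Itga8, 1.84-fold lower (1.73 to 1.97), and Pdlim5, 1.74-fold lower (1.65 to 1.82). In 12 of the 13 both stiff libraries were above both soft ones, by a narrow margin for Flnc, while Itga11 in stiff with A83-01, at 49.5 CPM, was below the 81.1 CPM of untreated soft.

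How far the stiffness difference depended on the inhibitor was given as the log2 ratio with A83-01 minus that without, with a counting interval and no test. It was 1.45 for Itgb4 (1.08 to 1.82), 1.26 for Itga7 (1.11 to 1.41) and 1.09 for Itgb8 (0.172 to 2.02). It was −1.43 for Itgbl1 (−1.75 to −1.10). These were the 4 of the 41 genes past 1 in size with an interval that excludes 0, and over all genes 5.85% lay above and 3.04% below in that way. Itga11, with −0.32 (−0.516 to −0.120), and Csrp1, with 0.09 (0.0460 to 0.135), were close to the same difference in both.

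Adhesion genes outside the list were counted in the same test. Of 46 further integrin and adhesion genes that reached the minimum, 9 rose on stiff matrix and 0 fell, beside 2.35% and 3.29% of all genes. Their median log2 difference was 0.29. Among the 9 were Synpo2, an actin-bundling protein of muscle (3.13, SE 0.141), Pdlim3, an alpha-actinin partner (2.79, SE 0.414), Kank4, a talin-binding protein (2.03, SE 0.197), Ajuba, a LIM protein of the Hippo pathway (1.57, SE 0.211), and the actin-associated palladin gene Palld (1.23, SE 0.186). With A83-01, 0 of the 46 were called in either direction by edgeR's quasi-likelihood test. At an unadjusted p of at most 0.05 in that test, 4 were higher and 6 lower, beside 7.25% and 6.04% of all genes.

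Of 27 integrin ligand genes, 2 rose and 3 fell on stiff matrix, with a median of 0.09, beside 2.35% rising and 3.29% falling of all genes. Tgfb3, whose latent form binds integrins of the alpha v class, rose by 4.88 (SE 0.189), and Col11a1 rose by 3.38 (SE 0.190) and fell by 4.51 with A83-01 (SE 0.196). Among those that fell were the osteopontin gene Spp1, which fell by 2.48 (SE 0.177), and Emilin1, which fell by 1.72 (SE 0.221). Col1a1, a chain of the main collagen ligand, had 19079 and 69475 CPM in stiff with A83-01 and stiff, against 17577 and 39252 CPM in soft with A83-01 and soft, and did not pass. Fn1, the fibronectin gene, had 3771, 5566, 6412 and 4273 CPM in the same order.

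Other cell type markers also differed between the libraries, and their part in the results was not tested. Summed CPM are given in the order stiff with A83-01, stiff, soft with A83-01 and soft. Over all genes 2.35% rose and 3.29% fell on stiff matrix. Endothelial markers, 11 in all, had 2595, 1515, 1952 and 1920 CPM, and Cdh5, the VE-cadherin gene, had 1325, 730, 886 and 870 CPM. With stiffness 2 of the 11 fell and 0 rose, and 7 had a log2 difference above 0. Those that fell were Vwf, with 18.6, 31.2, 48.0 and 126 CPM, and Plvap, with 21.9, 31.1, 53.1 and 61.6 CPM. In 10 pericyte and mural markers, 3 of which rose, the sums were 5477, 4347, 5547 and 4057 CPM. The 3 were Rgs5, Rgs4 and Heyl. Rgs5 had 220, 83.4, 23.2 and 21.9 CPM, and Heyl had 89.6, 235, 46.0 and 106 CPM. Pdgfrb, which did not pass, had 1470, 1591, 881 and 1239 CPM. In the additive test 9 of the 10 had a log2 difference above 0 with stiffness. Anpep, a main contributor to the sums, went the other way, with 1386, 867, 3507 and 1414 CPM. The sum of 11 fibroblast markers, 2 rising and 2 falling, was 44200, 127100, 50330 and 70430 CPM, with Col1a1, Col3a1 and Dcn the main contributors. Dcn, the decorin gene, fell on stiff matrix, with 5279, 1442, 21955 and 11520 CPM, and so did Pdgfra, with 241, 198, 931 and 1054 CPM. Mfap5 and Ogn rose, with 46.8, 77.0, 11.9 and 14.9 CPM for Mfap5 and 13.2, 32.2, 2.15 and 4.06 CPM for Ogn.

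Beside the low-level integrins, the sum of 11 leukocyte and macrophage markers was 120, 98.9, 197 and 149 CPM. With stiffness 1 of them rose and 2 fell, beside 2.35% and 3.29% of all genes. Of 8 keratinocyte markers, Krt5, Krt14, Krt15, Dsg3 and Cdh1 had 0 counts in every library, and the sums were 2.95, 3.78, 2.84 and 5.44 CPM. Those of Schwann cells and nerve, 8 in all, summed to 79.6, 299, 33.5 and 62.3 CPM, of which Ncam1 held 52.9, 282, 19.3 and 42.9 CPM. The 8 adipocyte markers summed to 58.2, 28.6, 88.2 and 54.1 CPM, and 3 of the 6 that reached the minimum fell on stiff matrix. Among 9 skeletal muscle markers, Myf5 and Pax7 had 0 counts in every library, and the sums of 565, 448, 101 and 101 CPM were nearly all Des, a gene of smooth muscle as well.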

How the data were processed

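RNA of 4 libraries was sequenced. Per the labels' protocols, mRNA was taken with oligo(dT) beads, primed with random hexamers, amplified by PCR and sequenced from both ends (DNBSEQ-T7). Neither molecular identifiers nor a strand-marking step is mentioned, so reads of overlapping genes may be shared between strands. The deposited count table holds unnormalised whole-number read counts per gene, made by the authors. The deposited FPKM table, also made by the authors, divides by length and depth. Per the submitters' processing notes, HISAT2, edgeR and Rnor_6.0 were used in roles that are not stated. Not given in the sources used here: their versions, the counter and the annotation.

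Libraries were grouped by their titles and columns matched by the sample descriptions; each group holds 1 library. TMM factors were 1.07 (stiff with A83-01), 0.876 (stiff), 1.04 (soft with A83-01) and 1.03 (soft). Genes with at least 1 CPM in at least 1 library were kept. Library pairs were compared by log2 CPM ratio (prior count 2) and an exact Clopper-Pearson 95% interval from both counts. A gene was 2-fold apart when that ratio reached 2 and the interval excluded equality. The additive test was edgeR's quasi-likelihood test (R 4.3.3, edgeR 4.0.16, limma 3.58.1, DESeq2 1.42.0) at an adjusted p of 0.05, common dispersion 0.0351. It was also run on simulated counts with the same dispersion for all genes and no dependence of stiffness on the inhibitor. That run cannot show whether the p-values hold in these libraries. Alternatives were other scalings, filters, tools, prior counts and the deposited FPKM with a pseudocount of 0.1. Genes given in full were those called for either factor and the up to 3 of each role with the largest pair ratios. The genes and lists were chosen with earlier results of these data known. The count-to-FPKM ratio was constant within 5% across libraries for 38 of the 42 genes. Promoter windows were matched by symbol to RefSeq for 32 of the 42 genes, and their build differs from that of the counts. Single values of some genes outside the 43 are not reported here.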

Additional observations from a re-analysis of the deposited data

How the results depend on the processing

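No paired analysis was possible because each group holds 1 library. Leaving out 1 library leaves 3 for 3 coefficients and no residual degree of freedom, so what remains is 1 library pair, as the report gives it. Of the 13 genes called for stiffness, all 13 were called under total-count scaling, no filter, 1 CPM in all 4 libraries, DESeq2's Wald test and limma-voom, 9 with DESeq2 size factors, and 0 with stiffness alone in the model. Higher calls were 20 with DESeq2's Wald test, 19 with total-count scaling and 0 with stiffness alone, and lower calls were 2 with total-count scaling. Over all 13634 genes, total-count scaling gave 623 higher and 1135 lower stiffness calls, against 574 and 737 with DESeq2's Wald test. DESeq2 size factors gave 246 and 328, and stiffness alone in the model gave 13 and 17. For A83-01, lower calls were 0 with DESeq2 size factors and with the inhibitor alone in the model, and 6 with total-count scaling and with DESeq2's Wald test; higher calls were 3 with total-count scaling, 1 with no filter and 1 with DESeq2's Wald test. Over all genes, total-count scaling gave 565 higher and 270 lower A83-01 calls, against 219 and 244 with DESeq2's Wald test, and 0 and 3 with limma-voom. The numbers were 10 and 17 with no filter, and 0 and 0 with DESeq2 size factors or with the inhibitor alone in the model. In stiff against soft, total-count scaling put 9 genes 2-fold higher and 3 lower, and FPKM 9 and 2, with medians of 0.51 and 0.49. In stiff with A83-01 against stiff the medians were 0.12 and 0.13 by these settings. At 1.5-fold, 3 genes were lower in stiff against soft, 12 in stiff with A83-01 against stiff and 11 in soft with A83-01 against soft. Over all genes 15.6%, 9.98% and 5.96% were lower in that order. In stiff against soft with A83-01 in both, 22 genes were higher and 2 lower, beside 13.5% and 13.1% of all genes. The cause of these differences was not tested. Of 46 library ratios past 2-fold, those of Itga10 among them, 0 changed sign under the other scalings, the lower prior count or FPKM. They were picked by that size, and these settings moved the median of all genes to between −0.23 and 0.31. A change of sign was therefore hardly possible, so this is no check of direction. Among smaller ratios, those of Itga5, Itgb3 and Bcar1 in stiff against soft turned with total-count scaling. Depth limits Itga10, Itgb8 and Itga4, which had under 100 counts in every library.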
